A study of Homo sapiens with 8 samples.

Results

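ZBTB16, GFI1, GFI1B, BCL6, ZBTB7A, IKZF1, PRDM1, EGR1, EGR2 and EGR3 encode zinc finger transcription factors that act in blood cells, and the histone marks at these 10 genes, of 20090 protein-coding genes, are described here. The genes were chosen by name, with earlier results of these data known. HL-60, an established human promyelocytic leukemia cell line, was treated with 1 µM all-trans retinoic acid (ATRA) for 4 days, or with ethanol, its solvent, as the control, and both groups received fresh medium with the same agent on day 2. Chromatin immunoprecipitation and sequencing (ChIP-seq) was done for H3K4me3 and for H3K27ac with 2 replicates of ATRA-treated and 2 of control cells each, which gives 8 libraries. The values are lengths of genome under the broad peaks called in each library, in base pairs (bp). Read counts were not analysed here, and the sequencing depth is unknown.

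H3K4me3 marks the promoters of active and poised genes, and H3K27ac marks active promoters and enhancers. Zinc finger repressors bind DNA through their fingers and recruit corepressors that carry histone deacetylases. ZBTB16 (also called PLZF), BCL6 and ZBTB7A do so through a BTB domain, GFI1 and GFI1B through a SNAG domain that binds the demethylase KDM1A, IKZF1 (Ikaros) through the NuRD complex, and PRDM1 (Blimp-1) through several partners. EGR1, EGR2 and EGR3 are immediate early factors that mostly activate genes and are held back by the corepressors NAB1 and NAB2, so the name repressor covers them only in part. In the myeloid lineage, ZBTB16 is a fusion partner of RARA in a rare form of acute promyelocytic leukemia, GFI1 is needed for neutrophils, GFI1B acts in erythroid and megakaryocytic cells, and EGR1 and EGR2 act in monocytes and macrophages.

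The genes lie, in hg19 coordinates from GENCODE release 44, on chromosome 11 (113929763 to 114127487, ZBTB16), chromosome 1 (92938600 to 92952482, GFI1), chromosome 9 (135819387 to 135867074, GFI1B), chromosome 3 (187439165 to 187463513, BCL6), chromosome 19 (4043301 to 4066897, ZBTB7A), chromosome 7 (50343664 to 50472799, IKZF1), chromosome 6 (106441338 to 106557814, PRDM1), chromosome 5 (137801168 to 137804992, EGR1), chromosome 10 (64571756 to 64578927, EGR2) and chromosome 8 (22545172 to 22550993, EGR3). The length under peaks was summed over each gene body plus 20 kb on each side. Distances below are counted from the canonical transcription start site (TSS), the start of the transcript that Ensembl takes as representative, with a minus sign for positions before it. The canonical TSS and the 5′ end of the gene record are the same base for GFI1, ZBTB7A, EGR1 and EGR3, and lie 34694 bp apart for GFI1B and 92873 bp apart for PRDM1.

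The H3K4me3 libraries had 13241 to 16487 peaks over 47.7 to 63.2 Mb, and control replicate 2 had the fewest. For H3K27ac, the ATRA libraries held 28200 and 39332 peaks over 64.8 and 86.1 Mb, and the controls 15457 and 29616 peaks over 28.8 and 54 Mb. Over all genes, the median log2 change (ATRA minus control) of length plus 1000 bp was 0.17 for H3K4me3 in 13981 genes and 0.54 for H3K27ac in 13907 genes. A gene that stays level with this background is therefore longer in ATRA, and its values are read against these medians. The numbers of reads behind the libraries are unknown, and their part in this shift was not tested. An H3K4me3 peak lay over a TSS in all 4 libraries for 5 of 8 promyelocytic markers (MPO, CD33, SPI1, CEBPA and CEBPE) and over none for ELANE and AZU1. All 4 T cell markers had no such peak in any library, as did HBB, PF4 and GP9, markers of erythroid and megakaryocytic cells, while EPOR and ITGA2B of those lists had it in all 4.

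ZBTB16 had less H3K27ac in ATRA-treated cells. The other 9 genes had log2 changes above 0, as did 83.7% of the genes tested, and of these 9 GFI1, GFI1B, ZBTB7A and IKZF1 fell below 0 with each library centred on its median. Of its region, 438 and 1700 bp lay under peaks in ATRA replicates 1 and 2, against 38274 and 54248 bp in the control replicates. The lowest control value was thus far above the highest ATRA value. In a bulk sample, fewer cells with the mark and less of the mark per cell cannot be told apart. The log2 change was −4.56 (SE 0.46, n = 2 per condition), the lowest of all 13907 genes, and within replicate numbers 1 and 2 it was −4.77 and −4.35. In limma's test across all genes the adjusted p was 0.0592, which missed the threshold of 0.05. It was 0.0208 with log2 values centred on each library's median, where 0.201% of all genes were called lower, and 0.00019 with the replicate number as a block. Over 15 alternatives, the adjusted p for ZBTB16 ranged from 0.00019 to 0.605, and 3 passed. For H3K4me3, 3127 and 4760 bp lay under peaks in the ATRA libraries and 8237 and 6577 bp in the controls, again without overlap of the groups. Its H3K4me3 log2 change was −0.78 (SE 0.21), with an adjusted p by limma of 0.369, and of 0.0318 with the block.

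**Figure D1:**
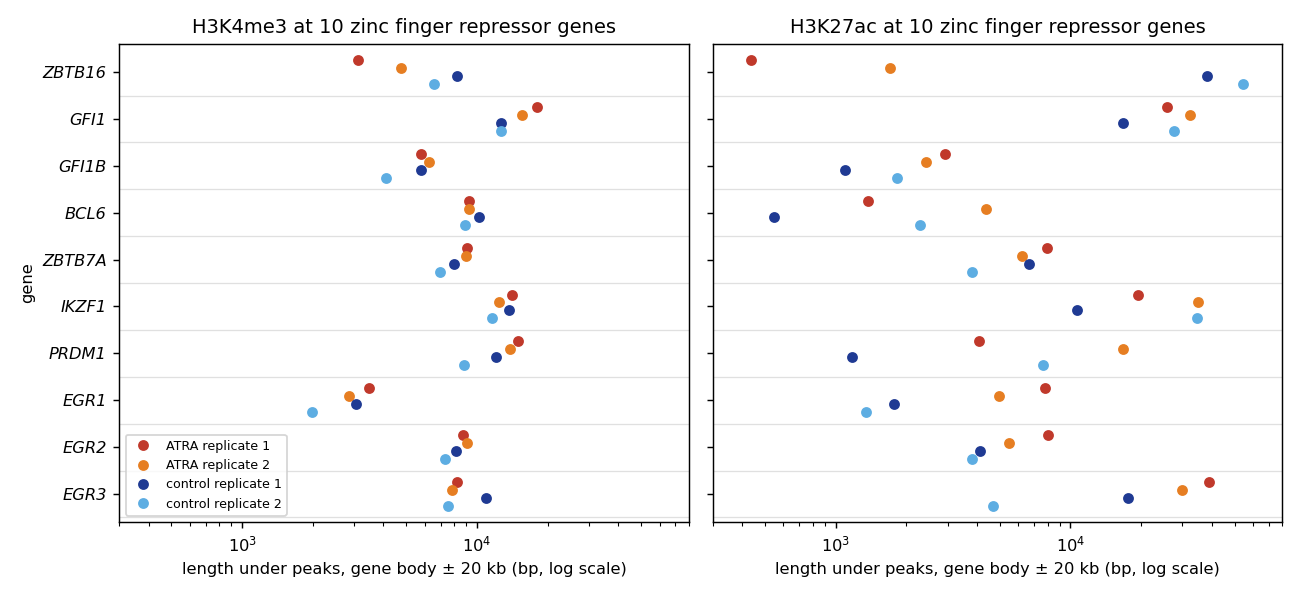
Length under H3K4me3 peaks (left) and H3K27ac peaks (right) in each gene body plus 20 kb on each side, in bp on a log scale, with 1 point per library. For ZBTB16 H3K27ac, both ATRA points (438 and 1700 bp) lie far to the left of both control points (38274 and 54248 bp), while the ATRA points of EGR1, EGR2, EGR3 and GFI1B lie to the right of the control points.

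The H3K27ac peaks of control cells were spread over much of the ZBTB16 gene, with none between 158541 and 197190 bp after the TSS. The longest spanned 28159 bp in replicate 2, from 17197 to 45355 bp after the TSS within the gene body, and 17765 bp in replicate 1, from 17497 to 35261 bp. These were the 11th and the 19th longest of the 29616 and 15457 H3K27ac peaks of their libraries. In control replicate 1, 3 shorter peaks carried the stretch on to 45121 bp, so the stretch ended at nearly the same place in both controls. Further peaks common to both controls lay from 118869 to 125175 bp (replicate 1) and from 120230 to 125634 bp (replicate 2), and from 156645 to 158494 bp and from 156877 to 158541 bp. Both controls also had a peak from 75690 to 77862 bp (replicate 1) and from 76687 to 77977 bp (replicate 2). ATRA-treated cells had a peak of 438 and 379 bp at 75471 and 75366 bp, each overlapping that peak of control replicate 1. ATRA replicate 2 had a further peak of 1321 bp at 23207 bp, within the longest peak of both controls. Control cells had 11 and 19 H3K27ac peaks in the region, and ATRA-treated cells 1 and 2.

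At the ZBTB16 promoter, the H3K4me3 peak was present in every library but shorter in ATRA-treated cells. It ran from −774 to 2352 bp and from −660 to 3519 bp in ATRA replicates 1 and 2, and from −2043 to 4106 bp and from −2479 to 4097 bp in the controls. The peak over the canonical TSS thus measured 3127 and 4180 bp in the ATRA libraries and 6150 and 6577 bp in the controls. H3K27ac lay over that TSS only in control replicate 2, in a peak of 3200 bp, and not in control replicate 1. The 5′ end of the gene record lies 670 bp before the canonical TSS and was left outside the H3K4me3 peak of ATRA replicate 2. Of the length under H3K27ac peaks in control cells, 29904 and 42578 bp lay more than 2 kb from any protein-coding TSS.

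**Figure D2:**
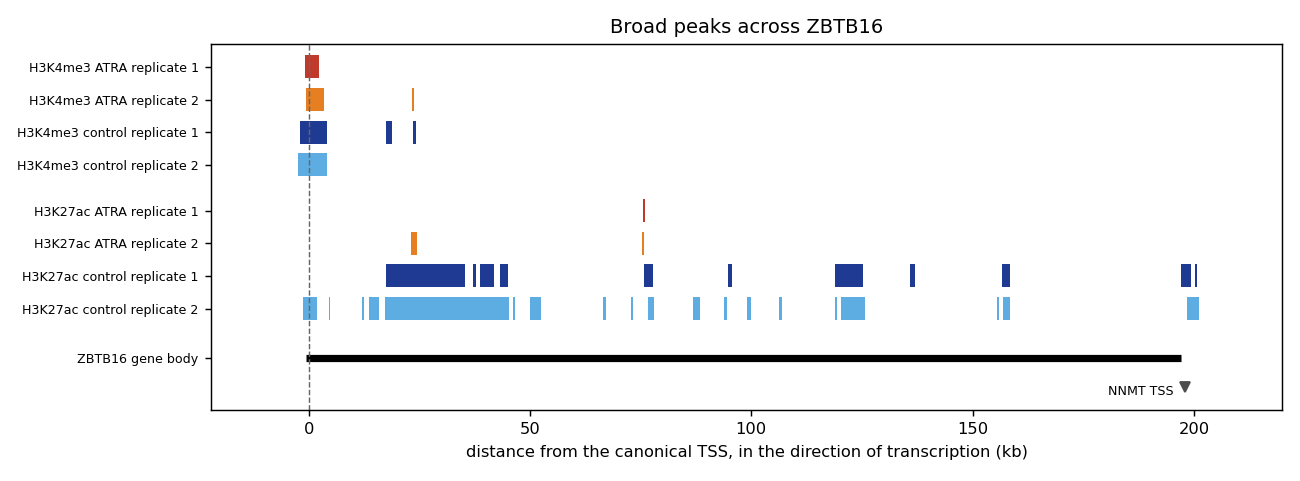
Peaks of both marks in each library across ZBTB16, by distance from the canonical TSS in kb. The H3K27ac blocks of the 2 control libraries fill most of the stretch from 17197 to 45355 bp and recur farther along the gene and just past its 3′ end. The ATRA libraries hold 1 and 2 short H3K27ac peaks.

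The 3′ site of ZBTB16 that the study used as a bait in circular chromosome conformation capture (4C) is shown, since control cells had H3K27ac peaks just past this end of the gene.
ZBTB16 4C bait primer: aaataaataaaggagggcttAAGCTT
The 26 bases of the bait primer that match the genome lie at chr11:114130511-114130536 on the minus strand, 3024 bp past the end of the gene, and the capitals mark the HindIII site. The primer site lay within an H3K27ac peak of control replicate 2 (2715 bp, from 198459 to 201173 bp), between 2 peaks of control replicate 1 (2249 bp and 396 bp), and no ATRA library had a peak there. The first of these replicate 1 peaks covers the TSS of NNMT, a neighbouring gene for a methyltransferase of nicotinamide, at 198076 bp.

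Calling a gene higher or lower where both ATRA values lay above or below both control values, 4 of the 10 genes were higher for H3K27ac (GFI1B, EGR1, EGR2 and EGR3) and 1 was lower (ZBTB16). Over all protein-coding genes, 33.7% were higher and 2.97% lower, and over the genes tested 47.3% and 3.97%, so 4 of 10 higher is no more than the background. With each library centred on its median 1 was higher (EGR1) and 2 were lower (ZBTB16 and GFI1), against 21.1% and 25% of the genes tested. For H3K4me3, 4 were higher (GFI1, ZBTB7A, PRDM1 and EGR2) and 1 was lower (ZBTB16), against 30.1% and 2.46% of all genes and 42.8% and 3.38% of the genes tested. With centring, 2 were higher for H3K4me3 (ZBTB7A and PRDM1) and 4 lower (ZBTB16, BCL6, IKZF1 and EGR3), against 17.5% and 25.1% of the genes tested. Compared only within replicate numbers, 6 genes were higher for H3K4me3 (IKZF1 and EGR1 joined the 4) and 9 for H3K27ac, against 57.4% and 68.3%, and ZBTB16 was lower for both marks, against 6.3% and 8.42%. With 2 libraries against 2, no exact two-sided p below 0.33 is possible for a single gene. The median log2 change of the 10 genes was 0.22 for H3K4me3 (0.17 over all genes) and 0.61 for H3K27ac (0.54 over all genes), and 6 of 10 lay above the median of all genes for each mark.

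In limma's test, none of the 10 genes passed an adjusted p of 0.05 for either mark. On simulated data this test called 0% of H3K27ac genes shifted by a log2 of 3, so missing the threshold does not show that a gene is unchanged. Over all genes, 0.0715% passed for H3K4me3 (7 higher and 3 lower), and 0% passed for H3K27ac, where 2810 genes had an unadjusted p under 0.05. With the replicate number as a block, 25.4% of all genes were called higher and 1.5% lower for H3K27ac, and ZBTB16 was called lower and PRDM1, EGR1 and EGR3 higher. For H3K4me3 under the block, 3.41% were called higher and 0.243% lower, and ZBTB16 was the only one of the 10 genes called. With the block and the centring together, a fit added after seeing the data, ZBTB16 was called for both marks and no other of the 10. No share over all genes is at hand for that fit.

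**Figure D3:**
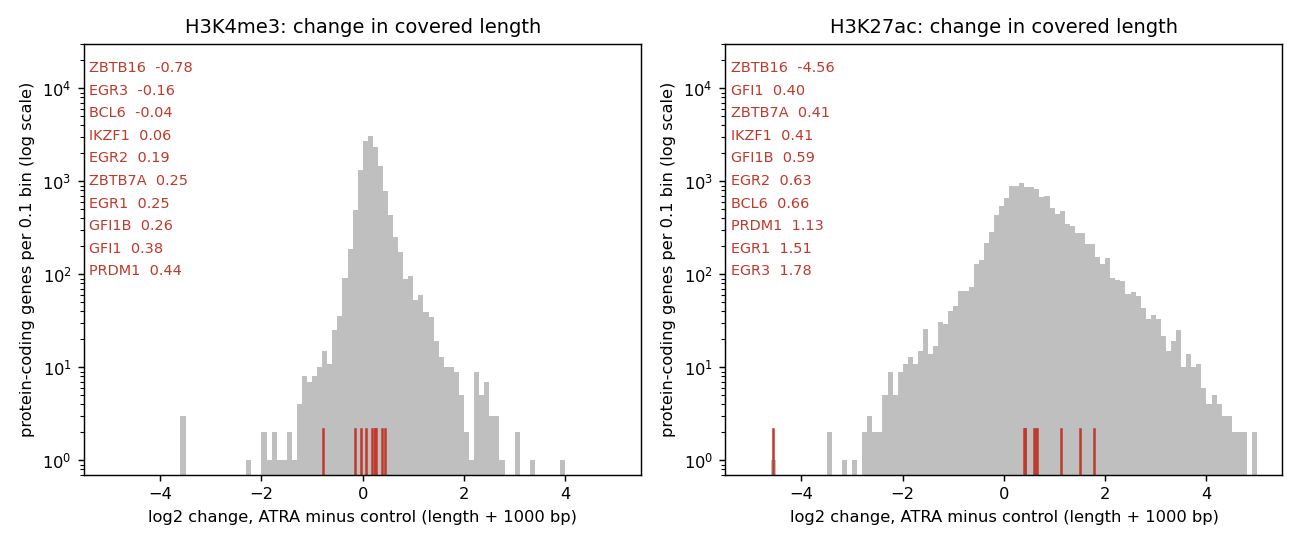
Log2 change in covered length (ATRA minus control, length plus 1000 bp) for all protein-coding genes tested (grey, genes per bin of 0.1 on a log scale) and for the 10 genes (red ticks, with the values printed). ZBTB16 has the lowest H3K27ac value of all, −4.56, and the other 9 genes lie between 0.40 and 1.78.

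EGR1, EGR2 and EGR3 each had more H3K27ac in both ATRA libraries than in both controls. EGR1 had 7806 and 4975 bp in the ATRA libraries and 1768 and 1343 bp in the controls. Its log2 change was 1.51 (SE 0.40), or 0.97 above the median of all genes, with an adjusted p by limma of 0.139, and of 0.00659 with the replicate block. Over its 13 alternatives the adjusted p ranged from 0.00659 to 0.481. The added length lay in a separate region before the gene. A peak from −8155 to −3151 bp in ATRA replicate 1 and peaks from −7583 to −4882 bp and from −3551 to −3332 bp in replicate 2 had no counterpart in either control library. More than 2 kb from any protein-coding TSS, EGR1 had 5073 and 3053 bp of H3K27ac in ATRA-treated cells and 0 bp in both controls. The promoter peak ended before the TSS in ATRA replicate 2 and in both controls, at −79, −65 and −339 bp, and reached 732 bp past it in ATRA replicate 1. H3K4me3 at EGR1 was 3459 and 2856 bp in the ATRA libraries and 3052 and 1990 bp in the controls, and the groups overlapped.

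EGR3 had the longest single H3K27ac peak among the 10 genes in each ATRA library. Its region held 39004 and 29901 bp in the ATRA libraries and 17623 and 4661 bp in the controls. The controls differed from each other by more than the ATRA libraries did. The log2 change was 1.78 (SE 0.62), with 1.10 and 2.45 within replicate numbers 1 and 2, and the adjusted p by limma was 0.208, or 0.0074 with the block. Over 15 alternatives the EGR3 adjusted p ranged from 0.0074 to 0.847. Without control replicate 2 the log2 change was 0.92, and without control replicate 1 it was 2.63. In ATRA replicate 1 a single peak of 40098 bp ran from −37694 to 2403 bp across the TSS, the 10th longest of 28200 peaks. In ATRA replicate 2 the longest peak, 19839 bp from −26820 to −6982 bp, stopped short of the promoter. Control replicate 1 had a peak of 8150 bp from −15258 to −7109 bp within the same stretch, and control replicate 2 one of 1045 bp. The counted region ended 20 kb before the TSS, so only part of each of the long ATRA peaks is in the region's totals. Downstream, an H3K27ac peak in every library took in the TSS of BIN3, a neighbouring gene, from 12626 to 28535 bp and from 18378 to 28718 bp in the ATRA libraries and from 22309 to 25545 bp and from 23995 to 26574 bp in the controls. EGR3 H3K4me3 was 8245 and 7831 bp in the ATRA libraries and 10917 and 7545 bp in the controls, and the groups overlapped. Its log2 change was −0.16, and it turned to 0.57 with the gene body alone, where both ATRA values lay above both controls, and to 0.08 without control replicate 1.

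EGR2, needed for macrophage and Schwann cell programs, had 8037 and 5455 bp of H3K27ac in the ATRA libraries and 4105 and 3798 bp in the controls. The log2 change was 0.63 (SE 0.38), or 0.08 above the median of all genes, so the difference was that of the average gene. Its promoter lay under both marks in every library, in H3K27ac peaks of 4509, 2257, 1841 and 1735 bp in ATRA replicates 1 and 2 and control replicates 1 and 2. Downstream, a peak of each mark in every library took in the TSS of ADO, which encodes a thiol dioxygenase. The length within 2 kb of that TSS was 2932 and 2505 bp of H3K27ac in the ATRA libraries and 2264 and 2063 bp in the controls, so part of the EGR2 value lies at the ADO promoter. For H3K4me3, 8755 and 9092 bp were under peaks in the ATRA libraries and 8130 and 7313 bp in control cells, a log2 change of 0.19 (SE 0.14), which was 0.02 above the median of all genes and −0.0008 with centring.

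**Figure D4:**
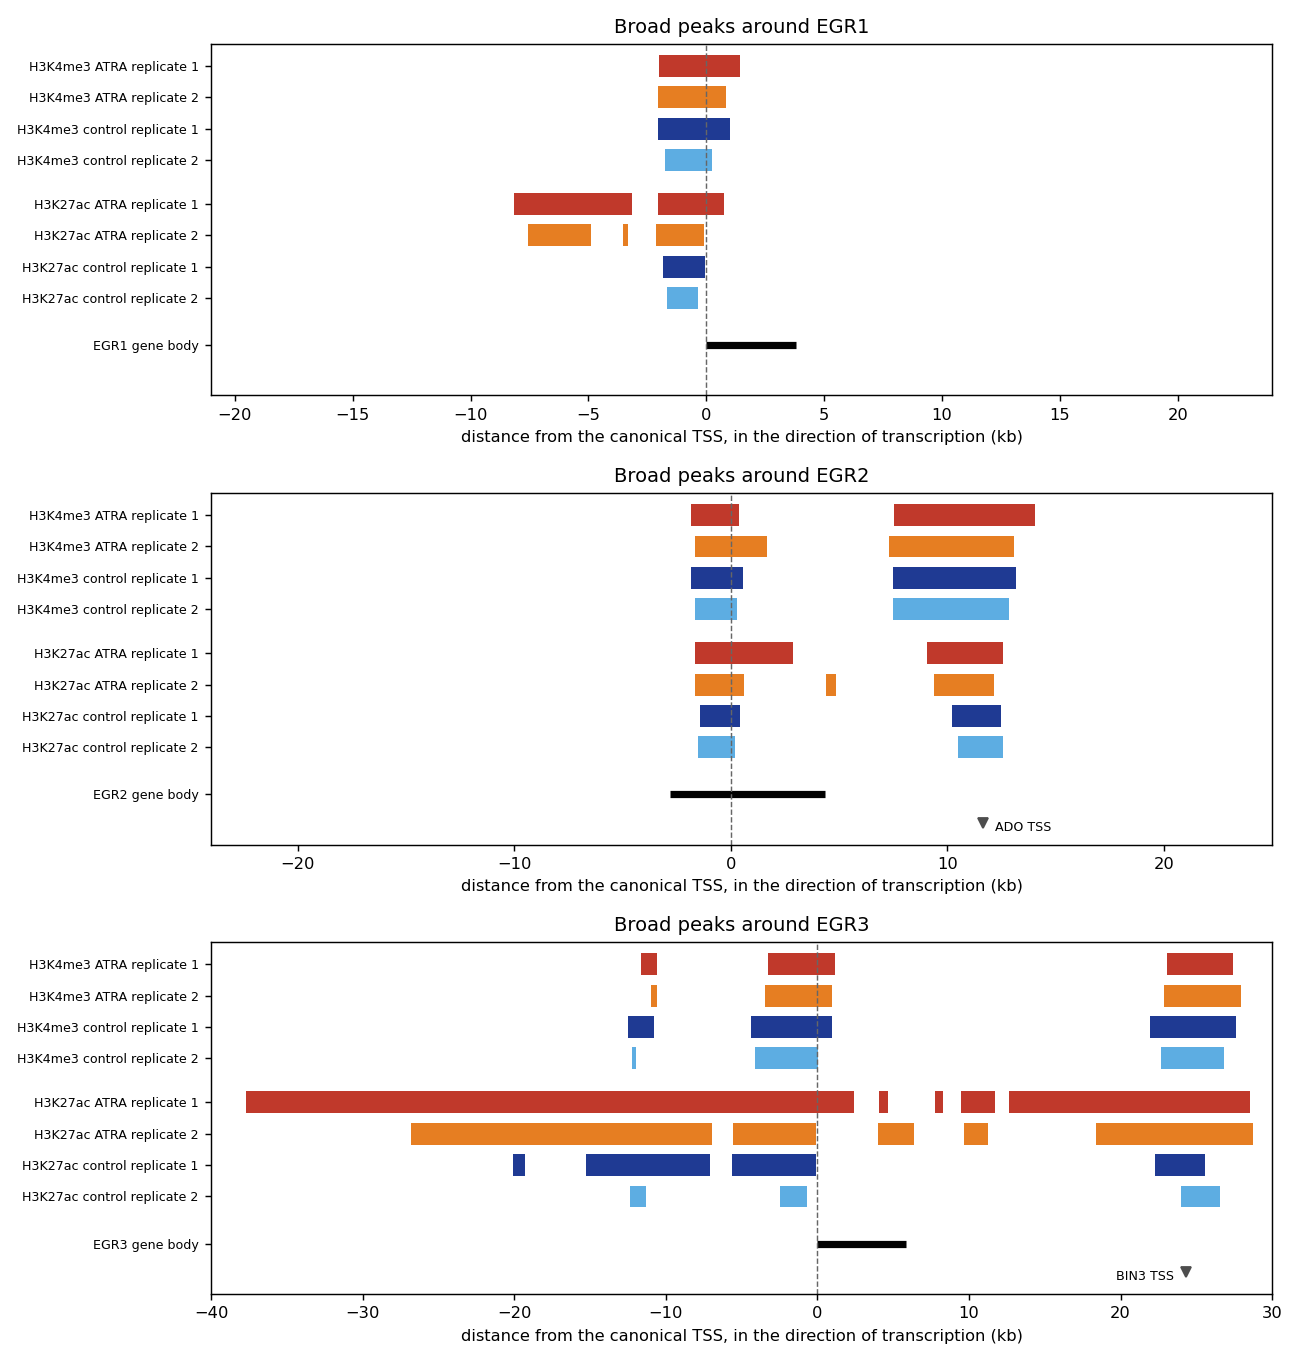
Peaks of both marks in each library around EGR1, EGR2 and EGR3, by distance from the canonical TSS in kb. At EGR1 the H3K27ac peaks from −8155 to −3151 bp and from −7583 to −3332 bp are found in the 2 ATRA libraries and in no control library, and at EGR3 the H3K27ac peaks before the TSS are longest in ATRA replicate 1.

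The promoters of the 3 EGR genes share a CArG box, the element that serum response factor binds, and EGR1 and EGR2 are shown for it. A CArG box was found in the promoters of EGR1 (from −105 to −96 bp and from −83 to −74 bp), EGR2 and EGR3 (both from −71 to −62 bp), in none of the other 7 genes, and in 1.2% of the 20090 promoters searched, from 250 bp before to 50 bp after each canonical TSS. Such a match is one of letters only. EGR1 also matched the EGR motif GCGNGGGCG from −198 to −190 bp, which was found in 13.9% of promoters. The sequences below run from −250 to −1 bp for EGR1 (chr5:137800918-137801167, plus strand) and from −250 to −11 bp for EGR2 (chr10:64576137-64576376, minus strand), in hg19, and capitals mark these matches.
EGR1 promoter: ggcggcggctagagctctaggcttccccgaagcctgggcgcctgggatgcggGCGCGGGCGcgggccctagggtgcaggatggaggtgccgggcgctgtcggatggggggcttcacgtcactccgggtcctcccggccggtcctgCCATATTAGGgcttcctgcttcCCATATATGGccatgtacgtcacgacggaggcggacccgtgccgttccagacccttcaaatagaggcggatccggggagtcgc
EGR2 promoter: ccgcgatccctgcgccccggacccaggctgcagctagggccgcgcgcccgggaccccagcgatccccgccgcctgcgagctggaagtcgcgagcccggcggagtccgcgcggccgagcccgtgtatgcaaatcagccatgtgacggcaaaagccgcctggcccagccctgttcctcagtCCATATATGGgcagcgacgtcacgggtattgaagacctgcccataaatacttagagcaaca
All motifs were searched on both strands. The BCL6 motif TTCCTNGAA was found in the BCL6 promoter itself (from 37 to 45 bp after the TSS, 1.32% of promoters). The PRDM1 motif AAAGTGAAA (0.622% of promoters), the PU.1 motif GAGGAAGT (2.5%), the cyclic AMP response element TGACGTCA (2.68%) and the DR5 retinoic acid response element (0.0548%) had no match in any of the 10 promoter windows. The EGR and CArG matches do not overlap.

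GFI1, a repressor of monocytic genes in neutrophil precursors, had more H3K4me3 in both ATRA libraries, 18023 and 15620 bp against 12702 and 12635 bp in control cells. The 2 controls were nearly equal, and both ATRA libraries lay above them. The log2 change was 0.38 (SE 0.15, adjusted p = 0.451 by limma), or 0.21 above the median of all genes. Most of the difference lay at the 3′ edge of 1 domain over the promoter and gene body. The domain began between −2649 and −2518 bp in all 4 libraries, and ended at 14713 and 12970 bp in ATRA-treated cells and at 10183 and 10055 bp in control cells. In ATRA replicate 1 it was the 44th longest H3K4me3 peak of 16258, and in control replicate 1 the 167th of 16160. In replicate 2 it ranked 56th of 16487 in ATRA-treated and 66th of 13241 in control cells, so the ranks were close in that pair. H3K27ac covered 25675 and 32173 bp in the ATRA libraries and 16743 and 27581 bp in the controls, and the groups overlapped. Its log2 change of 0.40 turned to −0.21 with centring and to −0.16 by peak numbers. A downstream H3K27ac domain past the 3′ end of the gene was present in every library, from 20359 to 31564 bp in ATRA replicate 1, from 19027 to 33807 bp in ATRA replicate 2 and from 19215 to 33327 bp in control replicate 2, and as 2 shorter peaks in control replicate 1.

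PRDM1, which ends the B cell program in plasma cells and acts in monocytic differentiation, had 14919 and 13878 bp of H3K4me3 in the ATRA libraries and 12018 and 8854 bp in the controls. The log2 change was 0.44 (SE 0.18, adjusted p = 0.454 by limma). The groups were separate at the canonical promoter and overlapped at the other peaks. The peak over the canonical TSS measured 6082 and 5642 bp in the ATRA libraries and 2811 and 2291 bp in the controls, and its 3′ edge lay at 4907 and 4621 bp in ATRA-treated and at 1648 and 1252 bp in control cells. The peak over the upstream TSS, at the 5′ end of the gene record, measured 5763 and 5252 bp in the ATRA libraries and 5288 and 4599 bp in the controls, and these values overlapped. A peak that started 10095 to 10443 bp after the TSS measured 3074 and 2694 bp in the ATRA libraries and 3919 and 1964 bp in the controls. PRDM1 H3K27ac followed the replicate number more than the treatment, with 4095 and 16816 bp in the ATRA libraries and 1177 and 7659 bp in the controls. The log2 change was 1.13 (SE 0.90, adjusted p = 0.538 by limma), with 1.23 and 1.04 within replicate numbers 1 and 2, and an adjusted p of 0.0211 with the block. Over 15 alternatives the PRDM1 adjusted p for H3K27ac ranged from 0.0211 to 0.981. Its log2 change was 0.14 without control replicate 1, 0.23 without ATRA replicate 2, 2.04 without ATRA replicate 1 and 2.13 without control replicate 2.

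IKZF1, a repressor and activator of lymphoid and myeloid genes, had 19393 and 35016 bp of H3K27ac in the ATRA libraries and 10705 and 34620 bp in the controls. Replicate 2 libraries were alike, and replicate 1 libraries were not. The log2 change of 0.41 turned to −0.21 with centring, to −0.002 without ATRA replicate 2 and to −0.39 without control replicate 1. An intronic H3K27ac domain was present in every library, with its longest peak from 77436 to 84656 bp and from 76995 to 84558 bp in ATRA-treated cells and from 78117 to 87083 bp and from 74212 to 86778 bp in control cells. The 5′ end of the IKZF1 record lay in an H3K27ac peak in both ATRA libraries and in neither control, the only such gene of the 10, against 3.02% of all genes. This rests on the TSS chosen, since the peak of control replicate 2 began at −375 bp and covered the canonical TSS with 8188 bp. None of the 10 genes had H3K27ac at the 5′ end in both controls only, against 0.403% of all genes. IKZF1 H3K4me3 was 14090 and 12412 bp in the ATRA libraries and 13672 and 11613 bp in the controls, and overlapped, with a log2 change of 0.06 (−0.12 with centring). The IKZF1 promoter is shown because it holds the only other EGR motif match among the 10 genes, from −214 to −206 bp (capitals), in the sequence from −250 to −41 bp (chr7:50344062-50344271, plus strand, hg19).
IKZF1 promoter: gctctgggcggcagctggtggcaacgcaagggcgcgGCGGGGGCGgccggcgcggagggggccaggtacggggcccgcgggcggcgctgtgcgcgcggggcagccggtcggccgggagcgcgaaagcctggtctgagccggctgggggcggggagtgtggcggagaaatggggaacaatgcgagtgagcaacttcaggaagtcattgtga

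**Figure D5:**
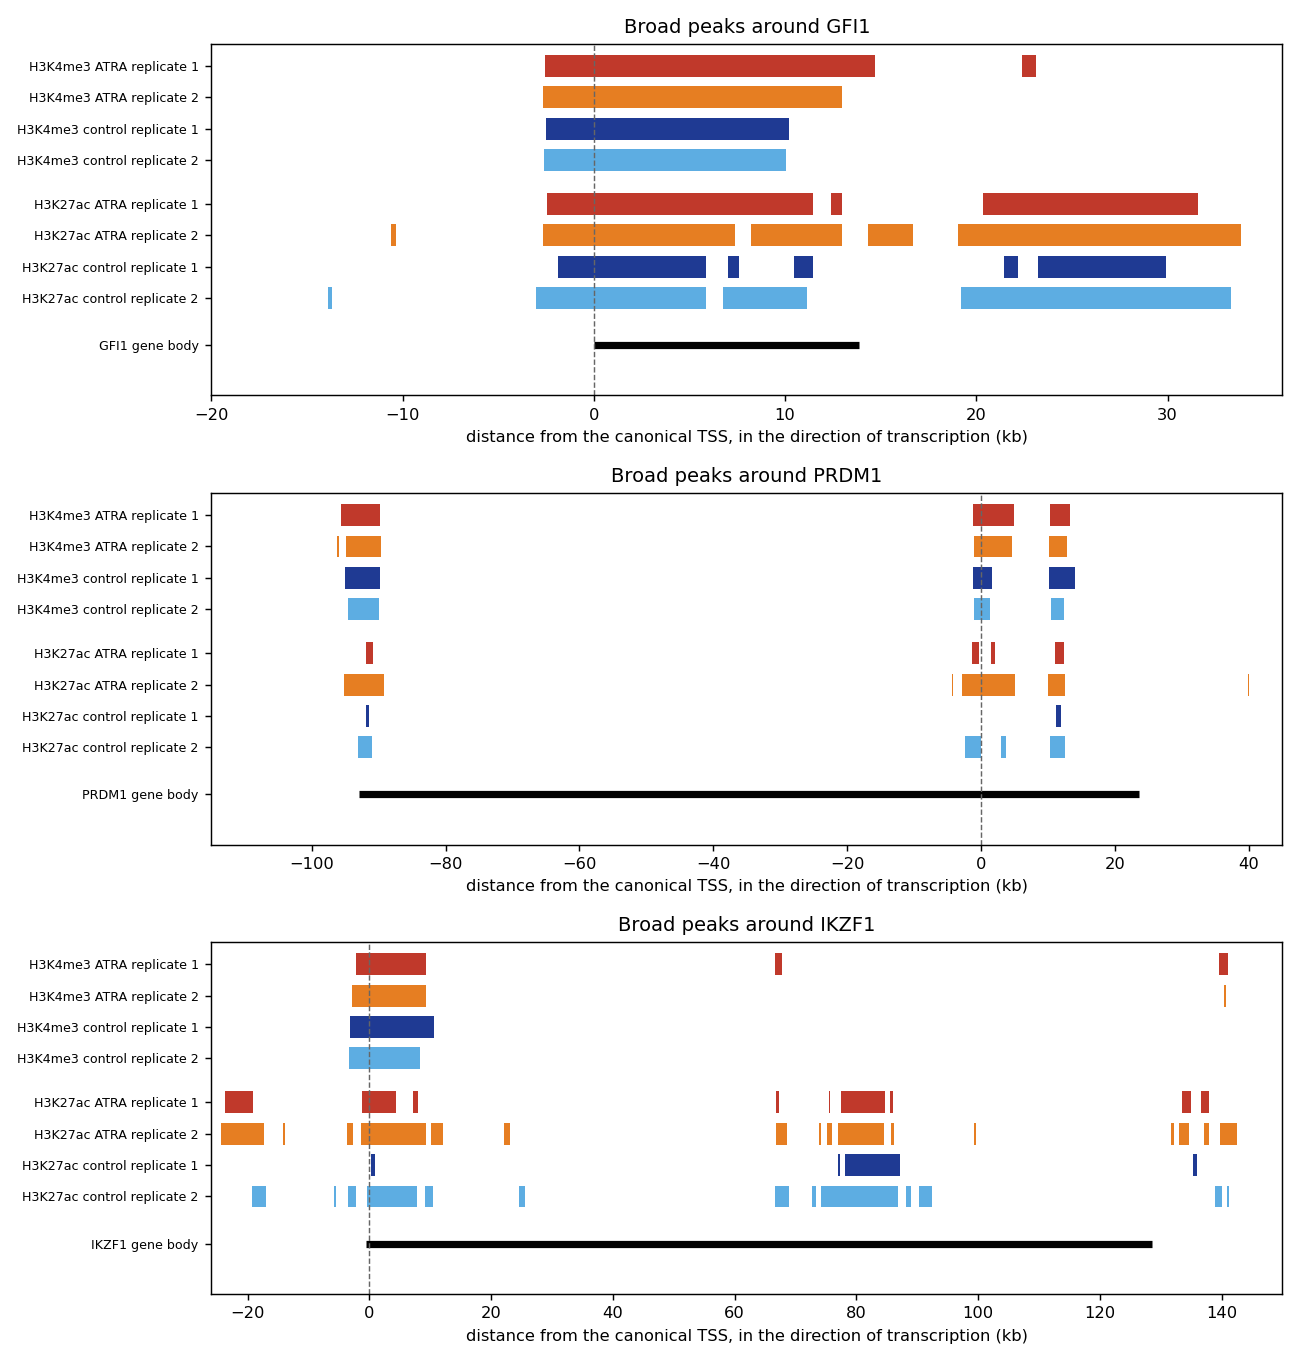
Peaks of both marks in each library around GFI1, PRDM1 and IKZF1, by distance from the canonical TSS in kb. The H3K4me3 domain of GFI1 reaches 14713 and 12970 bp in the ATRA libraries against 10183 and 10055 bp in the controls, the PRDM1 peak at the canonical TSS is longer in both ATRA libraries, and the intronic IKZF1 H3K27ac domain past 74212 bp is present in all 4 libraries.

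GFI1B, the erythroid and megakaryocytic relative of GFI1, had no H3K4me3 or H3K27ac peak over its canonical TSS in any library. The 5806, 6274, 5807 and 4093 bp of H3K4me3 counted in its region (ATRA replicates 1 and 2, control replicates 1 and 2) lay in 1 peak at the 5′ end of the gene record, which also covers the TSS of TSC1, an inhibitor of mTOR signaling on the opposite strand. Within the gene, short H3K27ac peaks of 638 and 643 bp (ATRA replicate 1) and 769 and 439 bp (ATRA replicate 2) started between 3570 and 5473 bp after the TSS. Control replicate 2 had 1 peak there of 986 bp, from 4294 to 5279 bp, and control replicate 1 had none. The total of H3K27ac was 2914 and 2434 bp in the ATRA libraries and 1098 and 1830 bp in the controls, a log2 change of 0.59 (SE 0.40), or 0.05 above the median of all genes and −0.03 with centring. Of this total, 1633 and 1226 bp in the ATRA libraries and 1098 and 844 bp in the controls lay in a peak that covers the TSC1 TSS.

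BCL6 and ZBTB7A had small differences in H3K4me3. BCL6, the germinal center repressor, had an H3K4me3 domain of 9293 and 9235 bp in the ATRA libraries and 10207 and 8926 bp in the controls, and the log2 change was −0.04 (SE 0.14). BCL6 H3K27ac was short in every library, 1373 and 4356 bp in the ATRA libraries and 549 and 2278 bp in the controls, and overlapped. ZBTB7A, a repressor of fetal globin genes, had 9051 and 9001 bp of H3K4me3 in the ATRA libraries and 8016 and 6933 bp in the controls, which did not overlap, with a log2 change of 0.25 (SE 0.14), or 0.08 above the median of all genes. Its H3K27ac, 7963 and 6238 bp in the ATRA libraries and 6632 and 3803 bp in the controls, overlapped, and its log2 change of 0.41 turned to −0.14 with the gene body alone and to −0.20 with centring. A further H3K27ac peak before the ZBTB7A TSS, between −12540 and −9845 bp, was present in all 4 libraries, with 2391, 1461, 1893 and 861 bp for its longest part.

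At the TSS, H3K4me3 was present in all 4 libraries for 9 of the 10 genes by the canonical TSS and for 8 by the 5′ end, where 50.4% and 47.2% of all genes had it. H3K27ac covered the canonical TSS of 7 and 6 genes in the ATRA libraries and of 4 and 6 in the controls, against 31.4%, 38%, 25.4% and 30.3% of all genes. It covered that of GFI1, BCL6 and EGR2 in all 4 libraries, as it did for 19.5% of all genes. The share of H3K4me3 length that also lay under H3K27ac in the library of the same condition and number was between 65% and 94.6% for GFI1 and between 51.7% and 100% for EGR3. At ZBTB16 it was 0% and 12.2% in ATRA-treated and 25.3% and 48.7% in control cells. Both marks come from separate libraries, so these shares compare cell populations and not single nucleosomes.

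Peaks were also classed as the study did, from the peaks found in both replicates of a condition. In the regions of the 10 genes, 18 H3K27ac peaks were shared by ATRA-treated and control cells, 14 were ATRA-specific and 9 were control-specific. Of all 22392 classed H3K27ac peaks, 45.7% were ATRA-specific and 8.1% control-specific. ZBTB16 held 8 of the 9 control-specific peaks and no ATRA-specific peak, and the remaining control-specific peak, of 305 bp, lay in IKZF1. IKZF1 held 6 of the 14 ATRA-specific peaks, and GFI1B, PRDM1 and EGR3 held 2 each and GFI1 and EGR1 1 each. Counting as specific only peaks with no overlap in any library of the opposite treatment left 7 for ATRA and 7 for control, against 34.1% and 4.93% of all peaks classed in that way. The ATRA-specific peaks lost by this rule overlapped peaks of control replicate 2. They lay at IKZF1, PRDM1 and GFI1B, and GFI1B kept none. The control-specific peaks lost were the longest at ZBTB16, of 17765 bp, and the 305 bp peak of IKZF1, which each overlapped a peak of ATRA replicate 2. For H3K4me3, 15 peaks were shared, 1 was ATRA-specific (1401 bp, past the 3′ end of IKZF1) and 0 were control-specific, against 14.1% and 2.56% of the 14115 classed peaks. The stricter rule left 1 and 0 for H3K4me3, against 6.18% and 1.29%.

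The partners and relatives of these factors were counted as well. Of 15 corepressors and partners, 11 had more H3K27ac in both ATRA libraries and 1 had less. Over all protein-coding genes 33.7% were higher and 2.97% lower, and over the genes tested 47.3% and 3.97%. The median log2 change of the 14 partners tested was 0.48 (0.54 over all genes). HDAC1, the deacetylase of several of these complexes, had 13319 and 13975 bp against 3945 and 2062 bp (adjusted p = 0.0997 by limma, or 0.00341 with the block). BCOR, the BCL6 corepressor, had 19458 and 28085 bp against 8837 and 15703 bp, and CHD4 of the NuRD complex 19048 and 18775 bp against 10153 and 10803 bp. For H3K4me3, 5 of the 15 were higher and 0 lower, against 30.1% and 2.46% of all genes and 42.8% and 3.38% of those tested. Their median log2 change was 0.17 (0.17 over all genes). Of the 5 higher genes, HDAC1, KDM1A, NAB1 and CHD4 had the largest changes, 0.43, 0.30, 0.29 and 0.47. None of the 15 passed limma's threshold for either mark, and 3 of the 14 tested were called higher for H3K27ac with the block, against 25.4% of all genes.

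Of 10 genes of the same families, 4 had more H3K27ac in both ATRA libraries and 1 had less, against 33.7% and 2.97% of all genes. For H3K4me3 these were 5 and 1, against 30.1% and 2.46% of all genes. Of the genes tested, 47.3% were higher for H3K27ac and 42.8% for H3K4me3. IKZF4 had 7883 and 8723 bp of H3K27ac in the ATRA libraries and 1235 and 1686 bp in the controls, a log2 change of 1.92. BCL6B (13072 and 11595 bp against 3447 and 4247 bp) and ZBTB7B (27778 and 22532 bp against 12475 and 18467 bp) were also higher, and ZBTB32 was lower with 4166 and 2546 bp against 5512 and 5786 bp. For H3K4me3, ZBTB7C had a log2 change of 0.81, PRDM2 of 0.47, IKZF5 of 0.37 and IKZF3 (Aiolos) of −0.46. The family medians were 0.17 for H3K27ac and 0.19 for H3K4me3. None passed limma's threshold, and with the block 2 of the 9 tested were called higher for H3K27ac and 1 of 10 for H3K4me3, against 25.4% and 3.41% of all genes.

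Of 12 genes on which these factors are known to act, 5 had more H3K27ac in both ATRA libraries and 0 had less. Over all genes 33.7% were higher and 2.97% lower, and over the genes tested 47.3% and 3.97%. The median log2 change of the 10 target genes tested was 0.75. CSF1, which encodes the macrophage growth factor, had 11759 and 4886 bp in ATRA-treated cells and no peak in either control library. CDKN1A, the cell cycle inhibitor p21, had 18436 and 17077 bp against 1793 and 7523 bp, HOXA9 1600 and 1192 bp against 0 and 835 bp, and NAB2, which EGR factors induce and which represses them, 8766 and 10554 bp against 5765 and 6151 bp. For H3K4me3, 5 were higher and 0 lower, with a median of 0.12, against 30.1% and 2.46% of all genes and 42.8% and 3.38% of those tested. ELANE, the neutrophil elastase gene that GFI1 represses, had 4039 and 6881 bp of H3K4me3 against 1900 and 1181 bp, although no H3K4me3 peak covered its own TSS. ID1, MYC and NAB2 had H3K4me3 log2 changes of 0.53, 0.10 and 0.12. None of the 12 passed limma's threshold, and with the block 3 of the 10 tested were called higher for H3K27ac and 1 of the 9 tested for H3K4me3, against 25.4% and 3.41% of all genes.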

How the data were processed

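ChIP-seq of H3K4me3 and H3K27ac was done in ATRA-treated and control HL-60 cells, 2 replicates each. The authors trimmed adapters with cutadapt and mapped the reads with Bowtie (hg19), and MACS2 was run in broad mode per library without a fragment model. Tool versions and the use of the input libraries are not given in the sources used here. The deposited files hold peak positions and −log10 q values. The deposited columns of fold and −log10 p were not used, as their values are outside the range of such measures. Between replicates, the −log10 q of overlapping peaks had a Spearman correlation of 0.0601 to 0.184 and their length one of 0.423 to 0.88, so length was used.

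Peaks were joined to GENCODE release 44 on GRCh37, whose coordinates are those of hg19. Covered length was tested with limma 3.58.1 (trend) on log2(bp + 1000) over protein-coding genes with a mean of at least 500 bp, with Benjamini-Hochberg adjustment over all of them. Peak names of same-numbered libraries carry a common tag, and their deviations from the condition means correlated at 0.271 (H3K4me3) and 0.529 (H3K27ac). Same-numbered libraries were therefore treated as pairs in the block and in the comparisons within replicate numbers. The main limma test had no block and did not use the pairs. Whether replicates are separate cultures is not given in the sources used here, so p-values measure only the spread between these libraries, and 2 per condition limit the precision. The test was checked on simulated data. Without the block it called 0% of H3K27ac genes shifted by a log2 of 3 and 89.5% of those shifted by 5. For H3K4me3 it called 0% at a shift of 1 and 96.5% at 2. With the block it called 0% at 1 and 87.5% at 2 for H3K27ac, and 90% at 1 for H3K4me3.

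Genes named are the 10 members, neighbours with a TSS in a region, and of each list at most 4 per mark with the largest log2 change among those whose groups do not overlap. The members and lists were chosen with earlier results of these data known. Some items that these rules cover are not reported here. Sequences were read from GRCh37 and, for the bait primer, from the study's primer list. Alternatives were a −log10 q of at least 5, equal peak numbers by length, the gene body alone or plus 50 kb, peak numbers, centring, pseudocounts of 200 and 5000 bp, no filter, the block, other TSS sets, other peak classes and leaving out each library. The canonical TSS and the block with centring were added after seeing the data.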

Additional observations from a re-analysis of the deposited data

How the results depend on the processing

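ZBTB16 kept its negative sign for both marks under all 13 settings of its log2 change, between −5.47 and −1.18 for H3K27ac and between −1.02 and −0.21 for H3K4me3. Since its groups did not overlap, leaving out 1 library or changing the pseudocount could not change the sign. The block could not either, as it returns the same estimate. Of 256 recomputed log2 changes of the 10 genes, 212 moved by less than 1 SD of replicates, among them those with the block, which cannot move. In 18 the sign changed, 5 of them at genes whose groups did not overlap and 13 at genes whose groups did. Of the 5, with a −log10 q of at least 5, EGR2 reversed to −0.10 (H3K4me3) and −0.40 (H3K27ac) and EGR3 H3K27ac to −0.49, and with centring EGR2 H3K4me3 reversed to −0.0008 and GFI1B H3K27ac to −0.03. The stricter −log10 q left 1 gene with more H3K27ac in ATRA (IKZF1) and 0 with less of either mark. It left 0 TSS with H3K27ac in ATRA only. No share over all genes is at hand for these gene and TSS counts. Of the H3K4me3 peaks, 2 were control-specific, against 15.7% of all peaks classed in that way. Of the H3K27ac peaks, 0 were shared, 0 ATRA-specific and 1 control-specific, against 1.83%, 66.1% and 32%. Since −log10 q hardly agreed between replicates, it is a poor ranking of peaks here.

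Centring left 2 genes with more H3K4me3 (ZBTB7A and PRDM1), 4 with less, 1 with more H3K27ac (EGR1) and 2 with less, and brought 1 past limma's threshold for H3K27ac. By peak numbers, 1 gene had more H3K4me3 and 0 had less, with no share over all genes at hand for these counts. Within replicate numbers, 6 genes had more H3K4me3 and 9 had more H3K27ac. With the replicate block, limma called 1 gene for H3K4me3 and 4 for H3K27ac. With block and centring it called 1 for each mark, with no share over all genes at hand. The block changed no other limma call of the 10 genes. With any annotated TSS, 0 genes had H3K27ac in ATRA only and 1, ZBTB16, in control only. With 1 kb on each side or the canonical TSS, 0 had it in ATRA only. No share over all genes is at hand for these TSS sets. With replicate 2 as base, 2 H3K4me3 peaks were ATRA-specific and 1 control-specific, against 15.7% and 3.43% of all peaks classed in that way. With no overlap in any library of the opposite treatment, 7 H3K27ac peaks were ATRA-specific, against 34.1%.

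Leaving out 1 library gave 4 to 9 genes with more H3K4me3 (9 without control replicate 1), 1 to 3 with less (3 without control replicate 2), 5 to 8 with more H3K27ac (8 without ATRA replicate 1 or control replicate 2) and 1 with less. It gave 1 to 3 TSS with H3K27ac in ATRA only (EGR1 and EGR3 joined without ATRA replicate 2, ZBTB7A without control replicate 1) and 0 to 1 in control only (ZBTB16 without control replicate 1), and limma called 0 genes for either mark in each case, with the lone library assumed to vary like the others. No shares over all genes are at hand for the counts with 1 library left out, so they are not read as results about the 10 genes. Without control replicate 1, the control values came from control replicate 2 alone, which had the fewest H3K4me3 peaks. BCL6, ZBTB7A and EGR1 H3K27ac had no limma value in some settings, where their mean length was under 500 bp.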
